A study of Mus musculus with 6 samples.

Results

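The 10 genes of 3 families of inducible transcription factors described here were Egr1, Egr2 and Egr3, Klf2, Klf4, Klf6 and Klf10, and Nr4a1, Nr4a2 and Nr4a3. They were taken by gene symbol from an expression table of 22105 genes with Ensembl identifiers, and all 10 symbols were found. The libraries came from RAW264.7, a transformed mouse macrophage line, so they describe 1 cell line in culture. In all, 3 libraries came from cells given PBS (phosphate buffered saline) and 3 from cells given CM-PEG-PLGA@DOX/R848 nanoparticles carrying the equivalent of 2 µg/mL DOX, and both groups were harvested at 24 h. DOX is doxorubicin, which damages DNA through topoisomerase II, R848 is resiquimod, a Toll-like receptor agonist, PEG and PLGA are the carrier polymers, and the labels leave CM unexplained. No library received DOX, R848 or the carrier alone, so their contributions cannot be told apart. Replicates are numbered 1 to 3 in each group, without word on whether they were separate cultures, so the p-values below measure the spread between these libraries, which may be technical.

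EGR proteins carry zinc fingers that read a GC-rich site, and they are made within minutes of a growth factor, stress or Toll-like receptor signal, chiefly through MAP kinases and the factor SRF. KLF proteins carry related zinc fingers and bind GC-rich and CACCC elements. In myeloid cells KLF2 is known for restraining inflammatory activation, KLF4 for monocyte differentiation and alternative activation, and KLF6 for promoting inflammatory gene expression. NR4A proteins are orphan nuclear receptors with no known natural ligand, whose activity follows their abundance, and in macrophages they are known for limiting inflammatory responses.

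Start sites of the 3 NR4A genes, which moved together, are shown first, with those of Egr2, which rose too, and Klf2, which fell. RefSeq promoter windows (GRCm38.p6, 250 bases before to 50 bases after a start site) were at hand for 7 of the 10 genes. Egr1, Egr3 and Klf10 had no window, so no motif was sought in them and nothing below speaks of their promoters. Klf4 and Klf6 also rose and had windows, but their bases are not printed. The lines shown thus do not stand for every member that rose. The lines below give the bases before the window's start site that no annotated exon of that gene in GENCODE covers, read 5′ to 3′ on the gene's own strand. The stretches lie at chr15:101266596-101266845 (+) for Nr4a1, chr2:57124004-57124253 (-) for Nr4a2, chr4:48045055-48045152 (+) for Nr4a3, chr8:72318812-72319032 (+) for Klf2 and chr10:67537619-67537868 (+) for Egr2. The Nr4a1 and Egr2 stretches lie downstream of the first annotated base of their genes. The Nr4a1 stretch lies within the annotated span of the gene but in none of its annotated exons. For Egr2, 1 of the 5 windows was chosen because its start site begins a GENCODE exon. Capitals mark the core of the cyclic AMP response element (TGACG, or CGTCA where it lies on the opposite strand), the EGR site (GCGNGGGCG, on either strand), the CArG box bound by SRF and the MEF2 box.
Nr4a1: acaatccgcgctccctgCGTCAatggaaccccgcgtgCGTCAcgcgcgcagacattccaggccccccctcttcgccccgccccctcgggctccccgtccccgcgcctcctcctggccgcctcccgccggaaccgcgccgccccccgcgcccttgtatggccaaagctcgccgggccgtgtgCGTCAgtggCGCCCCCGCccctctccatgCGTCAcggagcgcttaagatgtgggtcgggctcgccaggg
Nr4a2: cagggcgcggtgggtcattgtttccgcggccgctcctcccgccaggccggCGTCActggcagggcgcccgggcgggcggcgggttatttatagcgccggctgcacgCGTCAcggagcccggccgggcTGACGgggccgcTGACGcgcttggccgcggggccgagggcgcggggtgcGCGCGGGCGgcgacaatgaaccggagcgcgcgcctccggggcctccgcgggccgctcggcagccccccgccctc
Nr4a3: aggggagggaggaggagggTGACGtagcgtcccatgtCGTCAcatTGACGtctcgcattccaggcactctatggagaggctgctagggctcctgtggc
Klf2: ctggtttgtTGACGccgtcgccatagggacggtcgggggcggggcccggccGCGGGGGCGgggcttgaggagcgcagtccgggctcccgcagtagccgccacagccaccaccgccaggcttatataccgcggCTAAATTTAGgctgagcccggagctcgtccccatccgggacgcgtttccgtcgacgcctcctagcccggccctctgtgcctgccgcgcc
Egr2: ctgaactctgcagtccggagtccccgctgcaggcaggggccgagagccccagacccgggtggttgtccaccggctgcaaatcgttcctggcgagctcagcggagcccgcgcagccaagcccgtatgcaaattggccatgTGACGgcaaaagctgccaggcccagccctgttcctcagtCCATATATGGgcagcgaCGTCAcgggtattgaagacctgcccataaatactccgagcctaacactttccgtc

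The TGACG core stood 4 times in the whole window of each NR4A gene. Of 32851 RefSeq windows of the same length, 20.8% held it at least 1 time and 0.231% at least 4 times. It stood once in the Klf2 and Klf4 windows, 2 times in the Egr2 window shown and nowhere in the Klf6 window. The full palindrome TGACGTCA was in no window of the members that had one, against 1.79% of all windows. A CArG box stood in 4 of the 5 Egr2 windows (1.63% of all windows). Among the other members it was in none that had a window, and Egr1 and Egr3 had none to search. In the stretch shown its first base is at -72 from the start site. The MEF2 box was found in the Klf2 window alone among the members with a window (0.557% of all windows), with its first base at -118 from the start site. The EGR site was in the windows of Nr4a1, Nr4a2, Klf2 and Klf4 (5.55% of all windows), and there and elsewhere it can overlap the GC box GGGCGG (35.7%). The windows overlap one another where a gene has several start sites, and a match of letters is a description that says nothing of binding.

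The cells carried macrophage markers in every library. All 9 listed (Adgre1, Csf1r, Cd68, Itgam, Lyz2, Spi1, Ptprc, Fcgr1 and Cd14) were at 1.61 FPKM or more, where FPKM is a fragment count scaled to transcript length and library size. Their summed level was 3397 to 3536 FPKM in PBS and 1463 to 1553 FPKM in nanoparticle libraries. Most of that sum came from Lyz2, Cd68, Cd14 and Csf1r, all lower in every nanoparticle library. The markers did not all go that way, as mean Adgre1 was 1.77 FPKM in PBS and 12.4 FPKM with nanoparticles, and Fcgr1 35.2 and 39.8 FPKM. Itgam (means of 24.6 and 22 FPKM) and Ptprc (36.4 and 29.2 FPKM) were lower in every nanoparticle library. Mean Spi1 was 132 and 120 FPKM, with overlapping groups. The part of these differences in the results below was not tested. The summed markers of fibroblasts, T cells, B cells, epithelium, neutrophils and mast cells reached at most 0.815 FPKM for any type in any library. Genes listed above 0 numbered 12678 to 12872 in PBS and 15723 to 15989 in nanoparticle libraries. In bulk RNA, fewer expressing cells and less RNA per cell cannot be told apart. Of all genes tested, 42.7% were called higher and 34.5% lower after nanoparticles, which is the background for every count below. Calls were thus higher in 55.3% of cases, and in 71.9% when the libraries were scaled to the upper quartile of the genes each lists above 0, which moved the median log2 change (nanoparticle minus PBS, of FPKM + 1) of all genes by 0.24. Upper quartile scaling over the genes tested, defined after that result was seen, gave 47.2%.

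The comparison asks how these factors differed 24 h after the particles. Egr1, Egr2, Klf4, Klf6, Nr4a1 and Nr4a2 rose and Klf2 and Klf10 fell, in limma on log2(FPKM + 1) with Benjamini-Hochberg adjustment over all 10229 genes tested. Egr3 and Nr4a3 averaged under 1 FPKM over all libraries and were left out of that test. Egr2, Klf4 and Nr4a2 were under 1 FPKM in PBS and passed the filter through the nanoparticle group, where they were high. Of the 5 members at 1 FPKM or more in both groups (Egr1, Klf2, Klf6, Klf10 and Nr4a1), 3 rose and 2 fell. Among the 9744 genes meeting that condition 41.2% were higher and 35.1% lower, so being called is common in these libraries and the sizes below carry the description. The groups did not overlap at any of the 10 members, 7 higher and 3 lower with nanoparticles. Among the 18008 genes above 0 in any library, 39.4% stood apart with higher values and 21.3% with lower values. The median log2 change of all tested genes was 0.08.

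**Figure D1:**
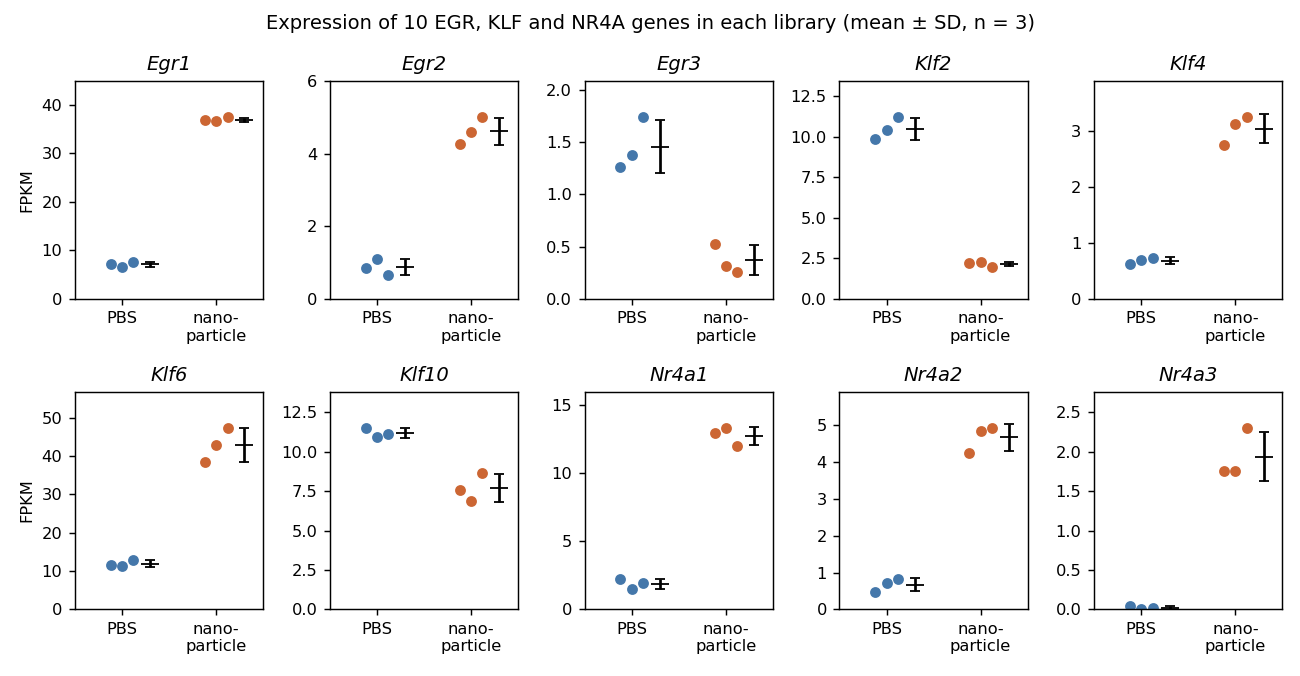
Expression in FPKM (vertical axes, each starting at 0) of the 10 genes in the PBS libraries (blue) and the nanoparticle libraries (orange), 1 point per library, with black bars for mean ± SD (n = 3). The groups stand apart in every panel, with Egr3, Klf2 and Klf10 lower and the other 7 genes higher after nanoparticles.

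Egr1, the founding member of its family and a general immediate early factor, was the most abundant EGR gene in both groups. It read 7.19, 6.52 and 7.52 FPKM in PBS replicates 1 to 3 and 36.8, 36.6 and 37.4 FPKM in nanoparticle replicates 1 to 3. The nanoparticle values lay within 1 FPKM of each other and far above PBS. Mean FPKM was 5.22-fold higher, and the log2 change was 2.23 ± 0.07 (SE, limma adjusted p = 2.1e-09). Only a small share of the tested genes moved further up, since 97.9% had a lower log2 change. Egr1 (ENSMUSG00000038418) overlaps no other annotated gene in GENCODE M21, and the same holds for each of the 10 members.

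Egr2, a factor used in nerve myelination, T cell tolerance and myeloid cells, rose from a low base. It stood at 0.857, 1.11 and 0.665 FPKM in PBS and at 4.26, 4.60 and 5.01 FPKM with nanoparticles. The lowest treated library was several times the highest PBS library. The ratio of means was 5.26, near that of Egr1, and the log2 change was 1.59 ± 0.10 (SE, limma adjusted p = 4.5e-07). As given above, Egr2 passed the filter through the nanoparticle group. Egr2 (ENSMUSG00000037868) spans chromosome 10, 67535475 to 67542188, on the plus strand, and is protein-coding with 7 annotated transcripts.

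Egr3, which shares its binding site with the other EGR proteins and is itself inducible, stood lower after treatment while Egr1 and Egr2 rose. It measured 1.26, 1.38 and 1.74 FPKM in PBS against 0.529, 0.318 and 0.260 FPKM with nanoparticles. Every treated library was under every PBS library, by a mean ratio of 3.96. At a mean of 0.914 FPKM it was not in the main test. In the fit without a filter, where 34.7% of 18008 genes were called higher and 19.8% lower, its log2 change was -0.85 ± 0.10 (SE, limma adjusted p = 5.0e-04). Egr3 (ENSMUSG00000033730) spans chromosome 14, 70077203 to 70082614, on the plus strand, with 4 annotated transcripts.

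The 3 EGR genes summed to 9.30, 9.01 and 9.92 FPKM in PBS and to 41.6, 41.5 and 42.6 FPKM with nanoparticles. Their proportions shifted as well. Egr3 made up 15.5% ± 2.00 (SD, n = 3) of the EGR sum in PBS and 0.883% ± 0.347 with nanoparticles, while Egr1 went from 75.1% ± 2.54 to 88.1% ± 0.423. The share of Egr2 overlapped between the groups, at 9.43% ± 2.83 and 11.0% ± 0.754. For Egr1 and Egr3 the two-sided exact permutation p was 0.1, the smallest that 3 against 3 libraries can give, and for Egr2 it was 0.5. Shares were compared for all 10 members, and the 7 at the smallest p have a Benjamini-Hochberg adjusted value of 0.14. The shares of one family are not independent of each other.

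Klf2, known for keeping myeloid cells and T cells quiescent, showed the largest fall among the members. It read 9.84, 10.4 and 11.2 FPKM in PBS and 2.19, 2.24 and 1.97 FPKM with nanoparticles. The treated values were close together and well under all PBS values. Mean FPKM was 4.91-fold lower, with a log2 change of -1.87 ± 0.08 (SE, limma adjusted p = 2.1e-08), and only 0.792% of tested genes had a lower log2 change. Klf2 (ENSMUSG00000055148) spans chromosome 8, 72319033 to 72321656, on the plus strand, with 1 annotated transcript.

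Klf4, a factor of monocyte differentiation and a component of reprogramming cocktails, went the opposite way from Klf2. It was at 0.613, 0.695 and 0.727 FPKM in PBS and at 2.75, 3.12 and 3.24 FPKM with nanoparticles. Its treated libraries all exceeded its PBS libraries, by a mean ratio of 4.47 (log2 change 1.26 ± 0.09 SE, limma adjusted p = 5.5e-07). Klf4 also passed the filter through the nanoparticle group. With nanoparticles Klf2 stood at 2.13 ± 0.147 and Klf4 at 3.04 ± 0.254 FPKM (SD, n = 3), and their ranges did not overlap. Klf4 (ENSMUSG00000003032) spans chromosome 4, 55527143 to 55532466, on the minus strand, with 3 annotated transcripts.

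Klf6, which co-operates with NF-kB in inflammatory gene expression, had the highest mean of the members in both groups, although in PBS its range overlapped that of Klf10. Its PBS values were 11.5, 11.4 and 13 FPKM and its nanoparticle values 38.5, 42.9 and 47.3 FPKM. The rise was 3.59-fold in mean FPKM (log2 change 1.76 ± 0.09 SE, limma adjusted p = 5.3e-08), and the treated libraries spread more widely than those of Egr1, with coefficients of variation of 10.3% and 1.13%. Klf6 (ENSMUSG00000000078) spans chromosome 13, 5861482 to 5870394, on the plus strand, with 3 annotated transcripts.

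Klf10, also called TIEG1, an early gene of transforming growth factor beta signalling, showed the smallest change. It was at 11.5, 10.9 and 11.1 FPKM in PBS and at 7.58, 6.88 and 8.65 FPKM with nanoparticles. No treated library reached the PBS range, yet the ratio of means was only 1.45. The log2 change was -0.49 ± 0.08 (SE, limma adjusted p = 4.3e-04), and 20.1% of tested genes had a lower one. Scaled to the upper quartile of genes above 0 in each library, it was -0.25 (adjusted p = 0.026). Klf10 (ENSMUSG00000037465) spans chromosome 15, 38291463 to 38300706, on the minus strand, with 6 annotated transcripts.

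In PBS the KLF sum of 33.4, 33.4 and 36.0 FPKM was divided nearly evenly among Klf6, Klf10 and Klf2, whose neighbouring ranges overlapped. Their shares were 34.9% ± 1.19, 32.6% ± 1.81 and 30.6% ± 1.00 (SD, n = 3). With nanoparticles Klf6 held 76.9% ± 1.27 of a sum of 51.0, 55.2 and 61.2 FPKM, Klf10 13.8% ± 1.23 and Klf2 3.86% ± 0.571. Klf4 rose in share from 1.98% ± 0.129 to 5.45% ± 0.183 and so passed Klf2. Each of the 4 shares separated the groups without overlap, at the smallest exact permutation p of 0.1.

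**Figure D2:**
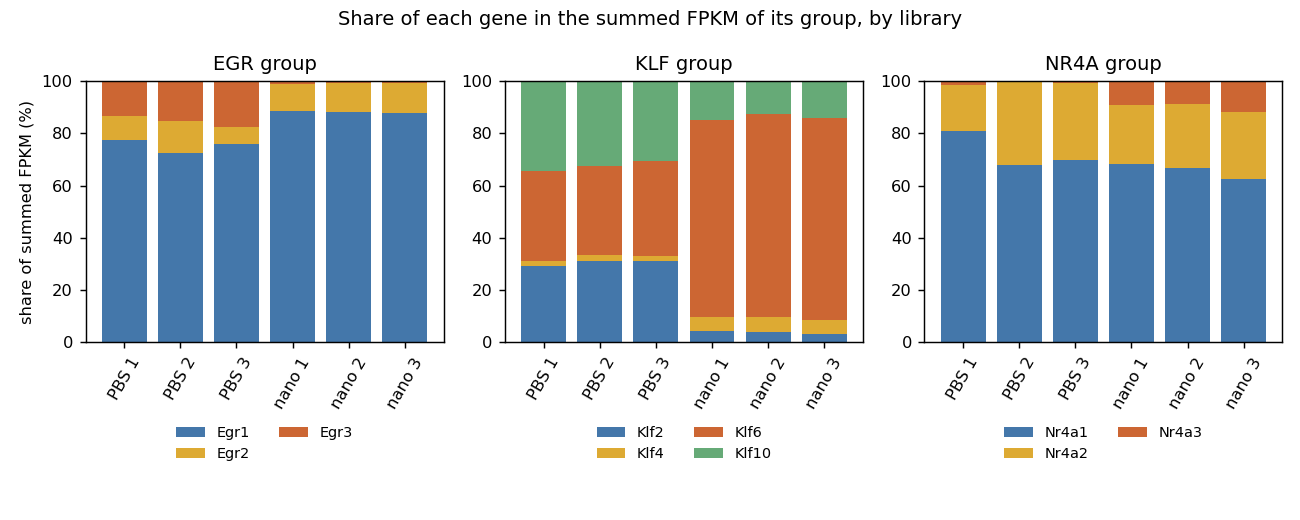
Share of each gene (vertical axis, percent) in the summed FPKM of the measured EGR, KLF and NR4A genes, 1 bar per library (nano stands for nanoparticle), each bar adding up to all of its family's sum. Egr3 nearly leaves the EGR bars, Klf6 grows to 76.9% of the KLF bars on average, and Nr4a3 appears in the NR4A bars, after nanoparticles.

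Nr4a1, the receptor Nur77, had a log2 change close to that of Egr1. It stood at 2.23, 1.48 and 1.93 FPKM in PBS and at 12.9, 13.3 and 12 FPKM with nanoparticles. Each treated library exceeded each PBS library several-fold, with a ratio of means of 6.76 (log2 change 2.26 ± 0.10 SE, limma adjusted p = 3.2e-08). Nr4a1 (ENSMUSG00000023034) spans chromosome 15, 101254269 to 101274795, on the plus strand, with 4 annotated transcripts.

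Nr4a2, the receptor Nurr1, best known from dopamine neurons and also induced in activated macrophages, rose alongside. It was at 0.474, 0.705 and 0.818 FPKM in PBS and at 4.25, 4.83 and 4.92 FPKM with nanoparticles. The groups were far apart, by a ratio of means of 7.01 (log2 change 1.77 ± 0.10 SE, limma adjusted p = 1.6e-07). Like Egr2 and Klf4, Nr4a2 passed the filter through the nanoparticle group. Nr4a2 (ENSMUSG00000026826) spans chromosome 2, 57106830 to 57124003, on the minus strand, with 6 annotated transcripts.

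Nr4a3, the receptor Nor1, was near the limit of detection in PBS and clearly measured after treatment. PBS replicates gave 0.0471, 0 and 0.0170 FPKM, and nanoparticle replicates 1.76, 1.75 and 2.30 FPKM. Because the PBS level rests on so little signal, with 1 library listed at 0, no fold is given. In the fit without a filter the log2 change was 1.52 ± 0.08 (SE, limma adjusted p = 1.1e-05). Nanoparticle libraries listed more genes above 0 than PBS libraries did, in the ranges given above, and the part of this in the low members Nr4a3, Nr4a2, Egr2 and Klf4 was not tested. Nr4a3 (ENSMUSG00000028341) spans chromosome 4, 48045153 to 48086447, on the plus strand, with 4 annotated transcripts.

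NR4A genes summed to 2.75, 2.19 and 2.77 FPKM in PBS and to 18.9, 19.8 and 19.2 FPKM with nanoparticles. Nr4a1 remained the leading member in every library, with 72.9% ± 7.12 of the sum in PBS and 65.8% ± 3.02 with nanoparticles (SD, n = 3). Its share overlapped between the groups (exact permutation p = 0.2), as did that of Nr4a2, at 26.3% ± 7.97 and 24.2% ± 1.57 (exact permutation p = 0.8). Nr4a3 went from 0.775% ± 0.867 to 10% ± 1.69 (exact permutation p = 0.1).

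By level, Klf6, Klf10, Klf2 and Egr1 led in PBS, at means of 12, 11.2, 10.5 and 7.07 FPKM, and the other 6 members were at 1.88 FPKM or less. The ranges of Klf6 and Klf10 and of Klf10 and Klf2 overlapped, as did those of Nr4a1 and Egr3, of Egr2 and Klf4, and of Klf4 and Nr4a2. With nanoparticles the order was Klf6 (42.9 FPKM), Egr1 (36.9), Nr4a1 (12.7), Klf10 (7.70), Nr4a2 (4.67), Egr2 (4.63), Klf4 (3.04), Klf2 (2.13), Nr4a3 (1.94) and Egr3 (0.369). There the ranges overlapped between Nr4a2 and Egr2 and between Klf2 and Nr4a3. Klf2 thus went from the third place to the eighth, and Nr4a1 from the fifth to the third.

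Genes with the most similar pattern were sought for Nr4a1 and Klf2, the members with the highest and the lowest log2 change at a pseudocount of 1 FPKM (Egr1, at 2.23, was within the error of Nr4a1), by Euclidean distance of the centred log2(FPKM + 1) values over the 6 libraries. With only 6 libraries in 2 groups, this likeness mostly reflects the size of the group difference. Nearest to Nr4a1 were Rnd1, a small GTPase (distance 0.214, log2 change 2.36), Helz2, a nuclear helicase (0.224, log2 change 2.20), and Egr1 (0.226). Nearest to Klf2 were Fbxo31, an F-box protein (0.0964, log2 change -1.85), Hadh, an enzyme of fatty acid oxidation (0.137, log2 change -1.92), and Cd72, a lectin-like receptor (0.144, log2 change -1.86).

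Transcripts of partner proteins were measured too. Nab1 and Nab2, corepressors that bind EGR proteins, both rose, from 17.9 ± 0.362 to 29.7 ± 2.40 FPKM (log2 change 0.70) and from 18.6 ± 1.15 to 25.0 ± 1.29 FPKM (log2 change 0.41; SD, n = 3). Egr4 was listed at 0 in every library and Wt1, a zinc finger relative, was not tested. Among the RXR genes, whose products pair with Nr4a1 and Nr4a2, only Rxrb was tested. It had a log2 change of 0.22 ± 0.07 (SE, limma adjusted p = 0.019). That call was lost without PBS replicate 3 (adjusted p = 0.08), without nanoparticle replicate 1 (0.059) and after upper quartile scaling over the genes tested or median-ratio scaling (0.22 and 0.3).

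Elsewhere in the KLF family, 6 of 13 listed genes were tested, of which 2 rose, 2 fell and 2 did not pass, with a median log2 change of -0.02. Klf16 fell from 17.1 ± 0.159 to 10 ± 0.344 FPKM and Klf13 from 4.36 ± 0.316 to 2.62 ± 0.221 FPKM. Klf8 rose from 1.02 ± 0.151 to 2.42 ± 0.273 FPKM (SD, n = 3). Of the related SP factors 4 of 9 were tested, 2 higher and 1 lower (median 0.20). Sp2 rose from 7.41 ± 0.716 to 10.7 ± 0.173 FPKM, Sp4 from 1.37 ± 0.327 to 3.01 ± 0.715 FPKM, and Sp3 fell from 20.2 ± 1.91 to 15.9 ± 1.51 FPKM. The Sp3 call was lost under upper quartile scaling over genes above 0 (log2 change -0.08, adjusted p = 0.44).

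Kinases that lie upstream of these genes did not move one way. Of 18 listed, 17 were tested, 5 higher and 9 lower (median log2 change -0.22). Rps6ka4, the kinase MSK2, which phosphorylates CREB and histone H3, fell from 19.0 ± 0.332 to 6.12 ± 0.983 FPKM. Mapk14, p38 alpha, fell from 36.7 ± 1.54 to 23.5 ± 0.675 FPKM. Map3k8, the kinase TPL2 that links Toll-like receptors to ERK, rose from 3.11 ± 0.410 to 6.62 ± 0.271 FPKM. These are transcript levels and say nothing of kinase activity.

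All 17 listed upstream transcription factors were tested, and 5 rose, 7 fell and 5 did not pass (median log2 change -0.08). The changes at the ends of this list were large. Crem, whose products include the inducible cyclic AMP early repressor, had 6.45 ± 0.329 FPKM in PBS and 49.8 ± 5.04 FPKM with nanoparticles (log2 change 2.77 ± 0.08 SE, limma adjusted p = 1.9e-09). Mef2c, a MADS box factor that acts under p38 and ERK5, fell from 56.8 ± 6.97 to 7.12 ± 1.27 FPKM (log2 change -2.84 ± 0.12 SE, limma adjusted p = 1.9e-08). Nfatc1, a calcineurin-dependent factor, fell from 27.6 ± 0.670 to 9.49 ± 0.574 FPKM. Srf itself was at 36.7 ± 0.475 and 35.0 ± 3.64 FPKM and did not pass (adjusted p = 0.38). Of the other MEF2 genes, Mef2a fell from 20.6 ± 2.57 to 12.1 ± 0.872 FPKM. Mef2d was at 40.8 ± 0.783 and 41.4 ± 0.756 FPKM and did not pass (limma adjusted p = 0.73). Beside Crem, Creb1 rose from 11.3 ± 1.24 to 16.9 ± 2.42 FPKM and Crtc2 from 27.7 ± 1.81 to 54.6 ± 3.69 FPKM. Crtc1 and Crtc3 did not pass (limma adjusted p = 0.41 and 0.17). Srf, Mef2a, Mef2d, Creb1 and the Crtc genes were named after their values were seen. The TGACG cores of the NR4A windows and the MEF2 box of the Klf2 window stand beside these values as sequence facts, and no link between them was tested.

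Other immediate early genes, outside the AP-1 family, were listed as 28 symbols, of which 27 were found. Of 24 tested, 21 rose and 2 fell, with a median log2 change of 1.95. The median of all tested genes was 0.08. Plk3, a stress-responsive kinase, had a log2 change of 3.23, Btg2, an antiproliferative gene, 3.22, and Dusp5, an ERK phosphatase, 2.91. Against the majority, Rgs2, a regulator of G protein signalling, fell from 23.6 ± 0.154 to 13.7 ± 0.564 FPKM. Immediate early genes were known to be higher in these libraries when the list was drawn up, so the count is no independent evidence.

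Factors that bind AU-rich elements, through which many early mRNAs are degraded, moved in both directions. All 6 listed were tested, with 2 higher and 4 lower (median log2 change -0.59). Zfp36, tristetraprolin, rose from 21.3 ± 0.714 to 75.7 ± 5.42 FPKM and its relative Zfp36l1 from 8.41 ± 0.525 to 25.3 ± 0.798 FPKM. Of those that fell, Hnrnpd had the smallest p, the RNA-binding protein AUF1, going from 195 ± 5.61 to 61.6 ± 3.70 FPKM. The third tristetraprolin relative, Zfp36l2, fell as well, with a log2 change of -1.24. It was named after its values were seen.

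Genes described as targets of EGR1, KLF2 or KLF4 were tested in 8 of 12 cases, and 4 rose, 2 fell and 2 did not pass (median log2 change 1.13). Cdkn1a, a cell cycle inhibitor, and Icam1, an adhesion molecule, rose, with log2 changes of 3.09 and 3.00. Classical KLF2 targets gave little signal. Thbd and Nos3 had mean values of at most 0.0728 FPKM in either group, and S1pr1 did not pass (log2 change -0.21 ± 0.11 SE, limma adjusted p = 0.099). These 3 were named after their values were seen. Many of these targets answer to other regulators as well, so their changes are not a readout of the factors.

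**Figure D3:**
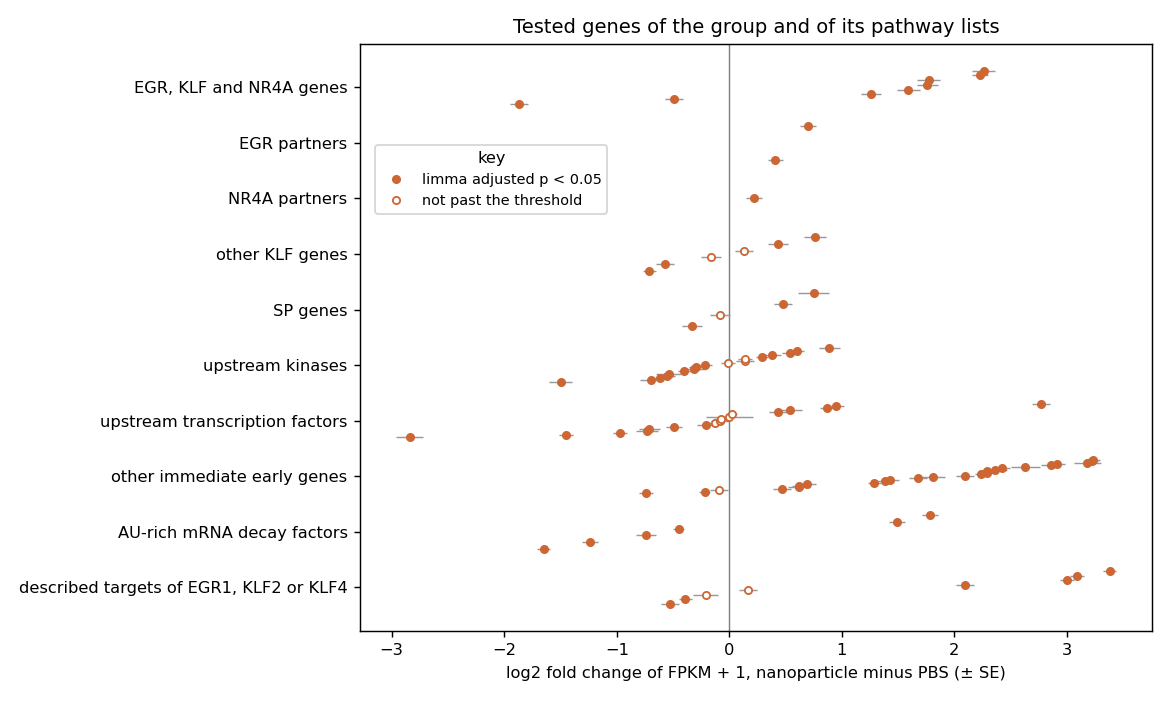
Log2 fold change of FPKM + 1, nanoparticle minus PBS, with its SE (horizontal axis), for the tested genes of the EGR, KLF and NR4A group and of each pathway list (rows, 1 point per gene). Filled points passed a limma adjusted p of 0.05 and open points did not. Klf2 and Klf10 are the 2 members left of 0, and the immediate early list lies mostly to the right.

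The sizes of the low members depend on the pseudocount of 1 FPKM. With pseudocounts of 10 and 0.1 FPKM the log2 change ran from 0.29 to 2.01 for Klf4, from 0.46 to 2.66 for Nr4a2, from 0.43 to 2.29 for Egr2, from 0.93 to 2.71 for Nr4a1 and from -0.75 to -2.24 for Klf2. The ratios of mean FPKM given above do not depend on it.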

How the data were processed

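The members and gene lists were chosen with earlier results of these data known. RNA of 6 RAW264.7 libraries was isolated with TRIzol and made into mRNA libraries by a BGI protocol, per the labels' protocols. The authors deposited 1 column per library, taken as FPKM from the values, since the header names no unit. Per the submitters' processing notes, the tools were STAR and featureCounts and the builds GRCm38 and mm10. Versions and the normalization step are not given in the sources used here. Each column was matched by its library name. That of PBS replicate 1 adds a suffix of unknown meaning.

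The 509 rows without a gene identifier (0.427% to 0.497% of FPKM) were left out. Depth is not stated. For genes with 1 transcript, low values multiplied by length were divided by the commonest step, and only 20.8% to 29.9% were whole multiples within 0.05, so no count test was run. Values were tested as log2(FPKM + 1) where the mean reached 1 FPKM. The test was limma 3.58.1 (intensity trend, treatment only, two-sided, R 4.3.3) with Benjamini-Hochberg adjustment at 0.05. It was checked on simulated data in which few genes changed, in equal numbers up and down. Most tested genes were called in the real libraries, so that check does not cover their setting. Because 1 FPKM was added, fold changes of low genes are understated. Shares were compared with an exact permutation test (scipy 1.17.1). Gene models came from GENCODE M21 and promoters from RefSeq (GRCm38.p6). Deviations from the group means correlated across genes between same-numbered libraries (0.13, 0.115 and 0.354), each over the limit of 0.1 set for pairing, and PBS 2 with nanoparticle 1 gave 0.134. This is a hint from the data, as the labels only share numbers. The limma test and the share tests were unpaired, and a replicate block was an alternative.

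Named genes were all members, the 3 list genes with the smallest p, the most significant gene against its list's majority, and the 3 genes nearest to the members with the highest and lowest log2 fold change. Some genes that this rule names are not reported here. Alternatives were other pseudocounts, filters and scalings, no trend, a replicate block and leaving out each library.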

Additional observations from a re-analysis of the deposited data

How the results depend on the processing

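All 8 tested members kept their direction and their call under each of the 15 alternatives in which they were tested. Egr2, Klf4 and Nr4a2, all higher, were under 1 FPKM in PBS and passed the filter through the nanoparticle group. Their kept calls are thus no independent support. Of the 5 members at 1 FPKM or more in both groups, 3 were higher and 2 lower. The replicate block called 6 members higher and 2 lower, as without it, and 4609 genes higher and 3742 lower among all genes. It changed no call of a named gene. A filter of a mean of 5 FPKM left 5 members, of which 3 were called higher and 2 lower, because Egr2, Klf4 and Nr4a2 fell under it. Leaving out 1 library at a time gave 6 to 7 members higher and 2 to 3 lower, since Nr4a3 passed the filter without any 1 PBS library and Egr3 without nanoparticle replicate 2 or 3. It gave 4110 to 4276 genes higher and 3257 to 3605 lower. Upper quartile scaling depended on the genes it was taken over. It was first taken over the genes above 0 in each library, which are more numerous in nanoparticle libraries. After those results were seen, a second version over the genes tested was added. The first version called 5825 genes higher and 2273 lower, against 4366 and 3530 without scaling, and 7 members higher and 2 lower, as Nr4a3 then passed the filter. The second version and median-ratio scaling each moved the median of all genes by -0.11, and the first by 0.24. Klf10 had the largest adjusted p of the members in any alternative (0.026, limma, first version). Nr4a1 had a log2 change of 0.93 and Egr1 of 1.46 with a pseudocount of 10 FPKM, so their order depends on it. Depth is not stated, so what it limits was not tested.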
